A study of Homo sapiens with 4 samples.

Results

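Message for 8 transcriptional regulators of kidney development was measured in HEK293 cells: PAX2, PAX8, WT1, SIX2, EYA1, SALL1, LHX1 and OSR1. Their probes were found through the RefSeq accession in the probe name, which gave 1 target and 3 probes for each gene, or 24 of the 71998 probes and 8 of the 17217 genes that could be named. HEK293 is an immortalized line of human embryonic kidney origin, transformed with adenovirus DNA. The series holds 1 group of 4 biological replicates, untreated and measured under basal conditions, each from its own plate of confluent cells grown in DMEM with serum and antibiotics and with its own RNA extraction. Total RNA, copied from an oligo(dT) primer and labelled with Cy3, was hybridised in a single colour to long-oligonucleotide arrays. There is no second condition, so the question that can be asked is which of these factors stood above the level of genes that the line is thought not to transcribe.

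As background, the kidney forms from the intermediate mesoderm, where OSR1, LHX1, PAX2 and PAX8 act early in the duct and in the tissue around it. In the metanephric mesenchyme EYA1, SALL1 and WT1 are needed for the mesenchyme to attract the ureteric bud, and SIX2 holds nephron progenitors in an undifferentiated state. PAX2, PAX8, WT1 and LHX1 are used again as the progenitors become epithelial, and WT1 persists in podocytes, the filtering cells of the glomerulus.

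The baseline followed the study's rule, the mean plus 2 SD of seminal protein genes on each array. It was 9.47, 9.94, 10.69 and 10.32 log2 units on replicates 1 to 4 (10.10 ± 0.52, SD, n = 4). A gene was called detected where its distance, its log2 level minus the baseline of the same array, averaged above 0. Affinity differs from probe to probe, so that a distance sets a gene against the baseline and not against another gene. By this rule 52.7% of all named genes were detected. As background, 1 of 364 olfactory receptor genes was detected and all 14 reference genes were. Of the control genes SPATA5 and SPATA13 had mean levels of 9.97 and 9.72 log2 units, and the others had 6.53 to 7.25. A baseline without SPATA5 and SPATA13 was lower, at 7.78 ± 0.28 log2 units (SD, n = 4). Genes measured with 3 probes on 4 arrays are limited by those numbers, and Pearson's r between arrays, across genes, was 0.949 to 0.977. Replicates 2 and 4 differed from replicates 1 and 3 by over 1 log2 unit in 10.7% of all genes, and the labels name no batch that goes with this. Of the 8 factors 3 did so, WT1 by 1.48, PAX8 by 1.08 and LHX1 by -1.47 log2 units as the mean of replicates 2 and 4 minus that of replicates 1 and 3, and what this split stands for was not tested.

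Of the 8 factors 4 were detected, SALL1, WT1, EYA1 and SIX2, a share of 50% beside the 52.7% of all genes. SALL1 alone lay above the baseline on all 4 arrays, as did 45% of all genes. PAX2, PAX8, LHX1 and OSR1 lay below it on all 4 arrays, as did 39.8% of all genes. With limma's one-sided moderated test, Benjamini-Hochberg adjusted over all genes, SALL1 and WT1 passed, while 45.9% of all genes did. The median distance of the 8 factors was -0.70 log2 units, and that of all genes was 0.26. The smallest p that exact sign flips of 4 arrays allow is 0.0625, above the threshold for any gene.

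**Figure D1:**
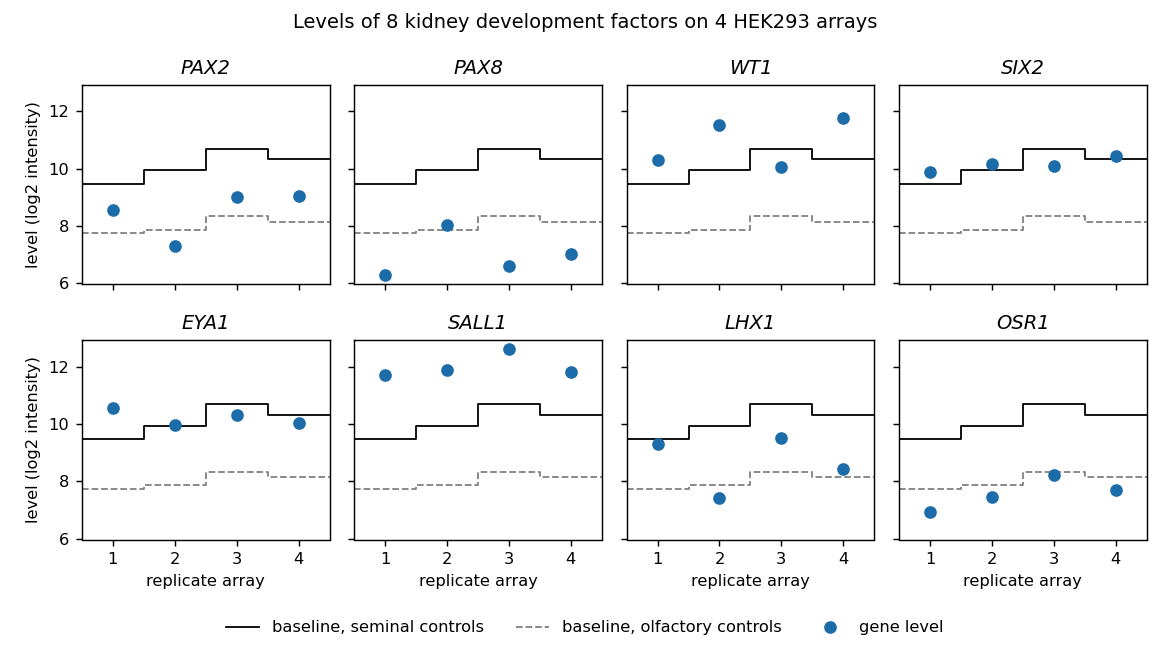
Log2 level of each of the 8 factors (points) on replicate arrays 1 to 4, with the baseline from seminal control genes (solid line) and one from olfactory receptor genes (dashed line) on the same array. SALL1 lies above the solid line on all 4 arrays, and PAX2, PAX8, LHX1 and OSR1 lie below it on all 4.

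Of the early intermediate mesoderm factors, none was detected with the study's baseline. Without SPATA5 and SPATA13 as controls LHX1 and PAX2 were, as were 74% of all genes. OSR1, a zinc finger factor that marks this tissue from its start, had levels of 6.94, 7.44, 8.24 and 7.68 log2 units on replicates 1 to 4. These followed the baseline of each array closely, and the distance of -2.53 ± 0.08 (SD, n = 4) varied less than any other among the 8. The LIM homeodomain factor LHX1 had levels of 9.31, 7.43, 9.5 and 8.43. Replicates 1 and 3 were the high arrays and replicates 2 and 4 the low ones, and its distances ran from -2.50 to -0.16 with a mean of -1.44 ± 1.01 (SD, n = 4).

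The paired box factors PAX2 and PAX8 can stand in for each other in early kidney formation, and neither reached the study's baseline. PAX2 had levels of 8.55, 7.30, 9.01 and 9.05 log2 units, with replicate 2 the lowest, and its distance was -1.63 ± 0.74 (SD, n = 4). PAX8 had levels of 6.29, 8.03, 6.60 and 7.02, with replicate 2 the highest, and its distance was -3.12 ± 0.90 (SD, n = 4). The arrays on which these genes were high and low thus differed, and no array brought either gene to the baseline.

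Among the factors of the metanephric mesenchyme, SALL1 stood clear of the baseline. SALL1, a multi-zinc-finger factor whose loss stops the ureteric bud from growing into the mesenchyme, had levels of 11.71, 11.88, 12.62 and 11.83 log2 units. Replicate 3 was the highest, and it was also the array with the highest baseline, so the distance stayed between 1.51 and 2.24 with a mean of 1.90 ± 0.30 (SD, n = 4, limma adjusted p = 9.6e-08). SALL1 kept a positive distance under all 18 alternatives run, from 0.59 to 4.23, with limma adjusted p from 7.0e-23 to 0.20.

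WT1, the zinc finger factor named after Wilms' tumour, had levels of 10.31, 11.54, 10.05 and 11.77 log2 units. Its high arrays were replicates 2 and 4, the reverse of LHX1, and on replicate 3 it fell below the baseline, at -0.64. Its mean distance was 0.81 ± 1.03 (SD, n = 4), within the spread between arrays, with a limma adjusted p of 0.023. The adjusted p was 0.22 without replicate 2 and 0.19 without replicate 4, and over all alternatives it ran from 3.2e-13 to 1. It was 0.066 with array pairs as a random block, replicates 1 and 2 and replicates 3 and 4. Those blocks do not model the difference between replicates 2 and 4 and replicates 1 and 3. The distance itself was 0.10 on replicates 1 and 3 alone and 1.53 on replicates 2 and 4 alone.

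EYA1, a phosphatase and coactivator that works with homeodomain partners, had levels of 10.55, 9.98, 10.30 and 10.03 log2 units. It lay above the baseline on 2 of 4 arrays and stood at 0.11 ± 0.67 (SD, n = 4, limma adjusted p = 0.73). Without replicate 1, where the distance was 1.08, the mean fell to -0.21, and EYA1 would not be called. SIX2, the homeodomain factor that keeps nephron progenitors, had levels of 9.88, 10.16, 10.08 and 10.44. Its level varied little, with an SD of 0.23, but lay so close to the baseline that the distance was 0.04 ± 0.45 (SD, n = 4, limma adjusted p = 0.87). Above the baseline on 3 of 4 arrays, SIX2 averaged -0.09 without replicate 1 and -0.03 without replicate 2. Neither gene passed limma's test.

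The 3 probes of a factor often lay far apart. Of the 24 probes 6 had a mean above the baseline, against 43.2% of all probes by mean. Counted only where all 4 arrays were above it there were 5, for which no share of all probes is given here. The baseline comes from gene levels, in which the linear values of 3 probes are averaged, and not from single probes. The range between the probe means of a target was 1.44 log2 units in the median over all targets. It was 5.46 for SALL1, 4.06 for EYA1, 3.53 for WT1, 2.81 for SIX2, 2.66 for PAX2 and 2.07 for LHX1, and only for PAX8 and OSR1, at 0.88 and 0.75, was it below that median. In PAX8 and OSR1, then, all 3 probes lay at a like distance under the baseline, from -3.59 to -2.22 over both genes. Their probe means were 6.52 to 7.89 log2 units, about where the control genes averaged on the arrays (7.09 to 7.84). The lowest probe value of an array was 5.14 to 5.49, and how far closeness to this floor narrowed the range was not tested.

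SALL1 had probe values of 12.96, 13.15, 13.95 and 13.16 log2 units on replicates 1 to 4 for its brightest probe and of 10.66, 10.99, 11.31 and 10.68 for the next. Neither fell below the baseline on any array, and they exceeded it by 3.20 ± 0.27 and 0.81 ± 0.39 (SD, n = 4 for each), while the dimmest stood at -2.26 ± 1.45 (SD, n = 4). The call of WT1 rested on its brightest probe. That probe gave 11.49, 12.74, 11.25 and 13.00, above the baseline on all 4 arrays at 2.01 ± 1.03 (SD, n = 4), and the others stood at -0.28 ± 0.88 and -1.52 ± 1.47 (SD, n = 4 for each). All 3 probes of WT1 were higher on replicates 2 and 4 than on replicates 1 and 3.

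For EYA1 a pair of probes lay just above the baseline, at 0.64 ± 0.59 and 0.62 ± 0.88 (SD, n = 4 for each), and the third far below it, at -3.42 ± 0.57 (SD, n = 4). SIX2 resembled WT1 in having a single probe above the baseline, with values of 11.00, 11.36, 11.22 and 11.14 and a distance of 1.07 ± 0.48 (SD, n = 4). The brightest PAX2 probe came near the baseline, with 9.84, 8.27, 10.02 and 10.36, above it on 2 of 4 arrays and at -0.48 ± 0.90 (SD, n = 4), while both others averaged more than 3 log2 units below. In LHX1 the probes stood at -0.84 ± 0.88, -1.40 ± 1.22 and -2.91 ± 1.40 (SD, n = 4 for each), and the brightest crossed the baseline on replicate 1.

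With the brightest probe of every target left out, control genes included, SALL1 stood at 0.59 ± 0.47 (SD, n = 4, limma adjusted p = 0.10), WT1 at -0.12 ± 1.07 and SIX2 at -0.53 ± 0.62 (SD, n = 4 for each). The number of the 8 factors detected was then 2, SALL1 and EYA1, beside 50.7% of all genes. What sets the probes of a target apart was not tested, and probe sequences were not used here.

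**Figure D2:**
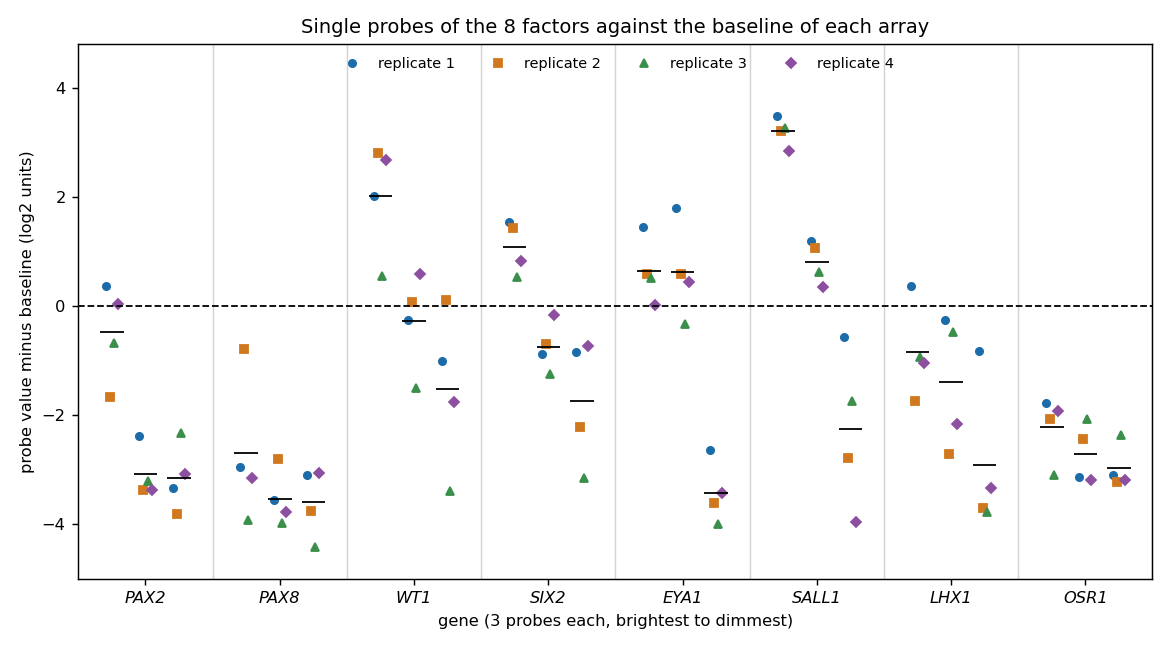
Value of each of the 24 probes minus the baseline of the same array (log2 units) for the 8 factors, with 1 point per replicate array, a bar at the mean of 4 arrays and a dashed line at the baseline. All 3 probes of PAX8 and of OSR1 lie below the baseline on every array, while the probes of SALL1 average from -2.26 to 3.20.

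The call depended on the height of the baseline for EYA1, SIX2, PAX2, LHX1 and WT1. PAX8 and OSR1 stayed below it, and SALL1 above it, under every alternative run, and WT1 crossed it with 3 SD and with other summaries of its probes. EYA1, SIX2, PAX2 and LHX1 also changed sides with the choice of control genes or the number of SD. Under olfactory receptor controls the baseline fell to 8.02 ± 0.27 log2 units (SD, n = 4), 71.4% of all genes were detected, and 6 of the 8 factors were. PAX2 then stood at 0.46 ± 0.68 and LHX1 at 0.65 ± 0.89 (SD, n = 4, limma adjusted p = 0.085 and 0.029), both within the spread between arrays. SIX2 and EYA1 rose to 2.12 ± 0.26 and 2.19 ± 0.41 (SD, n = 4 for each), beyond that spread, while OSR1 stood at -0.44 ± 0.29 and PAX8 at -1.04 ± 0.84 (SD, n = 4 for each). At the other end, with 3 SD the baseline was 11.42, 39.1% of all genes were detected and SALL1 was the only one of the 8, at 0.59 ± 0.35 (SD, n = 4, limma adjusted p = 0.20). WT1 also fell below, to -0.50. With 1 SD, which called 64.3% of all genes, and without SPATA5 and SPATA13, the control genes with the highest levels, which called 74%, SALL1, WT1, SIX2 and EYA1 lay above the baseline. Under the latter PAX2 stood at 0.70 ± 0.72 and LHX1 at 0.89 ± 0.94 (SD, n = 4, limma adjusted p = 0.013 and 0.0034). Both thus passed limma's test there, as did 68.6% of all genes, though each distance was within the spread between arrays. With the mean of log2 probe values 51.5% of all genes were detected and 2 of the 8 factors, SALL1 and WT1, and with the median 50.2% and 2, SALL1 and EYA1.

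**Figure D3:**
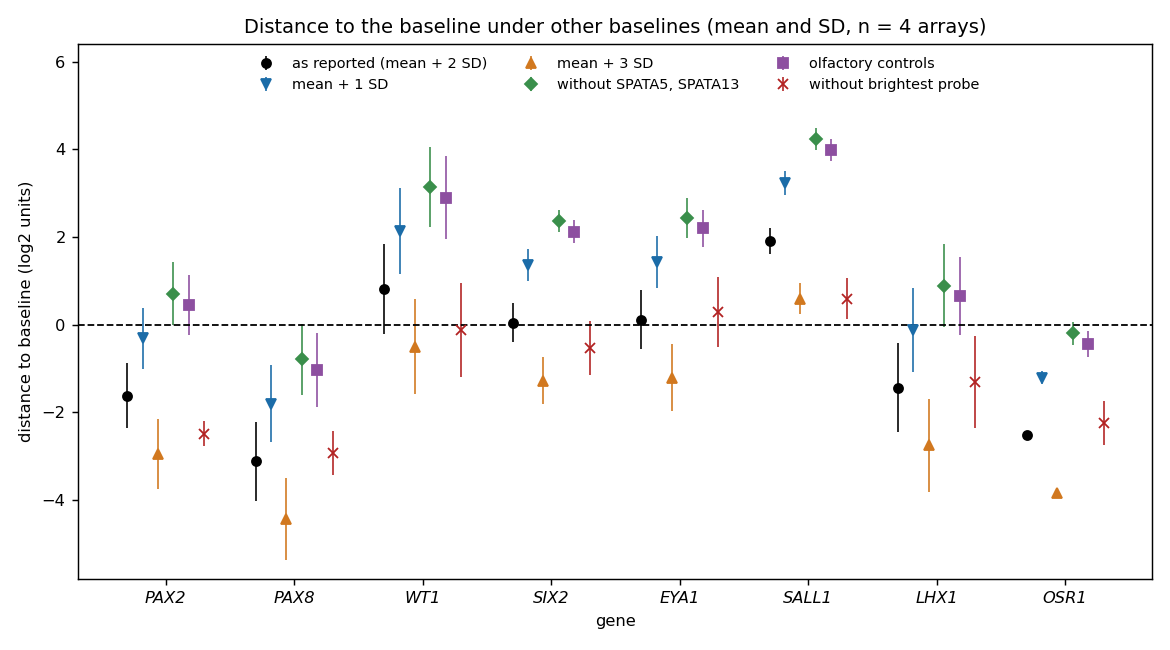
Distance of each of the 8 factors to the baseline (log2 units, mean and SD over 4 arrays) with the baseline as reported, with 1 or 3 SD, with other control genes and without the brightest probe of each target. PAX8 and OSR1 lie below 0 and SALL1 above 0 under each of these choices, and the other 5 factors cross it.

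Promoter sequence was looked at because CpG dinucleotides near the start of a gene went with detection on these arrays. Windows of 250 bases upstream of the annotated start came from RefSeq (GRCh38.p14), and a window was called CpG-rich with a CpG ratio, observed over expected from its C and G counts, of at least 0.6 and a GC content of at least 50%. Of 10072 genes with a single window, 64.1% were CpG-rich. Among those 71.3% were detected, and among the others 19.9% were, a description across genes that carries no test. Windows were held for 4 of the 8 factors, PAX2, PAX8, WT1 and SIX2.

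The windows of SIX2, of the WT1 start farthest upstream and of PAX8 are shown 5′ to 3′, with each CG in capitals, because they range from a CpG-dense to a sparser window among these factors. They lie at chr2:45009453-45009702, chr11:32435540-32435789 and chr2:113278922-113279171, all on the minus strand.
SIX2: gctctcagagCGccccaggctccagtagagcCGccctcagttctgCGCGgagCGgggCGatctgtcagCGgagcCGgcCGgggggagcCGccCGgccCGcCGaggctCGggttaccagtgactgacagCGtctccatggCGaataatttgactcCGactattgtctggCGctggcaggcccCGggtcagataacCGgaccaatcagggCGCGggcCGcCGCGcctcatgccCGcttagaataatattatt
WT1: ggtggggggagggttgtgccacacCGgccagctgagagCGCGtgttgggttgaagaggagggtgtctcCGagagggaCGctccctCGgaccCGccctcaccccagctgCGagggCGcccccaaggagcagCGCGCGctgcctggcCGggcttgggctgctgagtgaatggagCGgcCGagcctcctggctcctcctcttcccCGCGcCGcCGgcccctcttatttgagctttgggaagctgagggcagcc
PAX8: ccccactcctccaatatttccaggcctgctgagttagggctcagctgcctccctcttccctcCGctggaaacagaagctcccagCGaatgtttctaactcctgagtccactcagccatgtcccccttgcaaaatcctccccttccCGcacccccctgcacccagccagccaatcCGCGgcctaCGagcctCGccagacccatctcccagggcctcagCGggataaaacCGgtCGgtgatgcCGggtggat
SIX2 held 26 CpG dinucleotides (ratio 0.97), the WT1 window 19 (ratio 0.62) and the PAX8 window 11 (ratio 0.52), beside a median of 24 in CpG-rich and 4 in other windows. Both PAX2 windows fell short of the ratio, at 0.53 and 0.56. Of the 4 WT1 windows 3 were CpG-rich, and the one farthest downstream, at chr11:32400401-32400650, held 3 CpG dinucleotides. WT1 and SIX2, detected by the mean distance, thus had CpG-rich windows, and PAX2 and PAX8, not detected, had none. With 4 genes this is a list of values and no comparison. Among the other kidney development genes with a single window, 6 of 18 CpG-rich ones (33.3%) and 0 of 5 others were detected. Among the paralogues with a single window the shares ran the other way, with 6 of 13 CpG-rich ones (46.2%) and 2 of 3 others detected.

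The paralogues of the 8 factors were then set against the same baseline, to see whether a family was detected through another member. Of 32 matched paralogues 11 (34.4%) were detected, beside 52.7% of all genes. Counting those above the baseline on every array left 8, and limma called 9, beside 45% and 45.9% of all genes. With olfactory receptor controls 21 of the 32 paralogues were detected, beside 71.4% of all genes, and without SPATA5 and SPATA13 23 were, beside 74%. With the study's baseline the median distance of the paralogues was -0.22 log2 units, beside 0.26 for all genes. Among the lists of paralogues, kidney development genes and cofactors, 5 genes stand on more than 1 list.

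In the EYA family all of the 3 other genes were detected. EYA2, with levels of 12.91, 11.75, 13.29 and 12.08 on replicates 1 to 4, stood at 2.4 ± 0.79 and EYA3 at 1.47 ± 0.26 (SD, n = 4 for each), both above the baseline on all 4 arrays and beyond the spread between them. EYA4, at 0.50 ± 0.82 (SD, n = 4, limma adjusted p = 0.16), did not pass limma's test, like EYA1. In the family of SIX2, SIX4 and SIX5 lay near the baseline at -0.08 ± 0.82 and -0.11 ± 0.68, and the forebrain and eye factors SIX3 and SIX6 below it on all 4 arrays at -1.62 ± 0.64 and -3.30 ± 0.38 (SD, n = 4 for each).

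SALL1 was joined by SALL2 at 1.19 ± 0.89 and SALL3 at 1.76 ± 0.81, while the stem cell factor SALL4 stood at -2.59 ± 0.20 (SD, n = 4 for each). Among PAX genes PAX3, a neural crest and muscle factor, was detected at 0.95 ± 0.57 (SD, n = 4, limma adjusted p = 0.0079) and above the baseline on all 4 arrays. PAX6 and PAX9 lay near the baseline at -0.13 ± 0.91 and -0.10 ± 0.78 (SD, n = 4 for each). PAX5, which with PAX2 and PAX8 makes up a subfamily, stood at -2.95 ± 0.48 (SD, n = 4). None of that subfamily was thus detected with the study's baseline.

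For the LIM homeobox genes 3 of 10 were detected (30%, beside 52.7% of all genes). These were LHX2 at 2.27 ± 0.72, ISL2 at 1.56 ± 0.55 and LHX6 at 0.04 ± 0.49 (SD, n = 4 for each). LHX6 lay above the baseline on 2 of 4 arrays and did not pass limma's test (adjusted p = 0.86). LHX5, the closest relative of LHX1, stood at -1.05 ± 0.98 (SD, n = 4) and below the baseline on all 4 arrays. OSR2 lay at -0.27 ± 0.55 (SD, n = 4). EGR1, an immediate early factor whose zinc fingers resemble those of WT1, was detected at 1.27 ± 0.91 (SD, n = 4), and EGR2, EGR3 and EGR4 lay below the baseline on all 4 arrays.

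Other regulators of kidney development gave 22 detected of 56 matched genes (39.3%, beside 52.7% of all genes). Of these 17 lay above the baseline on all 4 arrays and 16 passed limma's test, beside 45% and 45.9% of all genes. The count depended on the control genes. With olfactory receptor controls 41 of the 56 genes were detected, beside 71.4% of all genes. Without SPATA5 and SPATA13 as controls 42 were, beside 74%. With the study's baseline the median distance of the 56 genes was -0.33 log2 units, beside 0.26 for all genes. Among nephron progenitor and renal vesicle genes 8 of 21 were detected (38.1%). HOXD11 at 2.01 ± 0.90 and HOXC11 at 2.03 ± 1.34, of the Hox group that patterns the metanephros, were among them, with HOXA11 at 0.60 ± 0.69 (SD, n = 4 for each). HOXA11 lay above the baseline on 3 of 4 arrays and did not pass limma's test (adjusted p = 0.093). Also detected were the integrin ITGA8 at 1.83 ± 1.18, the Notch receptor NOTCH2 at 2.91 ± 0.92 and the Notch target HEY1 at 3.47 ± 0.60 (SD, n = 4 for each). ITGA8 had levels of 10.65, 12.91, 11.19 and 12.97 log2 units on replicates 1 to 4, and HOXC11 10.85, 12.96, 11.15 and 13.59. Both were thus higher on replicates 2 and 4, as WT1 was. CITED1, a marker of the progenitor cap, had a distance of 0.52 ± 0.49 (SD, n = 4, limma adjusted p = 0.15). The progenitor gene MEOX1 and the tubule factor HNF4A lay below the baseline on all 4 arrays, at -1.63 ± 1.70 and -3.01 ± 0.11 (SD, n = 4 for each).

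The GDNF pathway, by which the mesenchyme draws out the ureteric bud, was not detected at its ligand or its kinase with the study's baseline. GDNF stood at -2.85 ± 0.35 and its receptor kinase RET at -1.69 ± 0.47, while the co-receptor GFRA1 stood at 0.67 ± 0.22 (SD, n = 4 for each) and above the baseline on all 4 arrays, with a limma adjusted p of 0.061. Of 15 ureteric bud genes 6 were detected (40%, beside 52.7% of all genes). Among these 6 were TFAP2A at 3.90 ± 0.57, ETV4 at 2.34 ± 0.35 and GATA3 at 1.10 ± 0.88 (SD, n = 4 for each). WNT9B, the bud signal that induces nephrons, stood at -2.36 ± 0.86, and WNT4, the signal of the forming vesicle, at -3.01 ± 0.51 (SD, n = 4 for each). Of 11 ligands and inhibitors 4 were detected (36.4%), with BMP7, a survival signal of progenitors, at 2.00 ± 0.36 and FGF9 at 1.03 ± 0.86 (SD, n = 4 for each). Of 7 stroma genes 3 were detected (42.9%), with FOXC1 at 3.93 ± 1.04 (SD, n = 4). FOXD1, which marks stromal progenitors, lay above the baseline on 2 of 4 arrays at 0.66 ± 0.98 (SD, n = 4, limma adjusted p = 0.067).

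Cofactors through which the 8 factors act were detected in 8 of 11 cases (72.7%, beside 52.7% of all genes). Each of these 8 cofactors lay above the baseline on all 4 arrays, as did 45% of all genes. LDB1, the bridge of LIM homeodomain complexes, stood at 3.08 ± 0.27, SSBP3 at 3.95 ± 0.62, the WT1-associated WTAP at 3.87 ± 0.55 and the PAX-associated PAXIP1 at 2.57 ± 0.45 (SD, n = 4 for each). The exceptions were DACH1 at -0.44 ± 0.72, DACH2 at -3.82 ± 0.76 and LDB2 at -2.76 ± 0.55 (SD, n = 4 for each). For LHX1, PAX2 and PAX8, then, a cofactor gene was detected with the study's baseline where the factor itself was not.

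**Figure D4:**
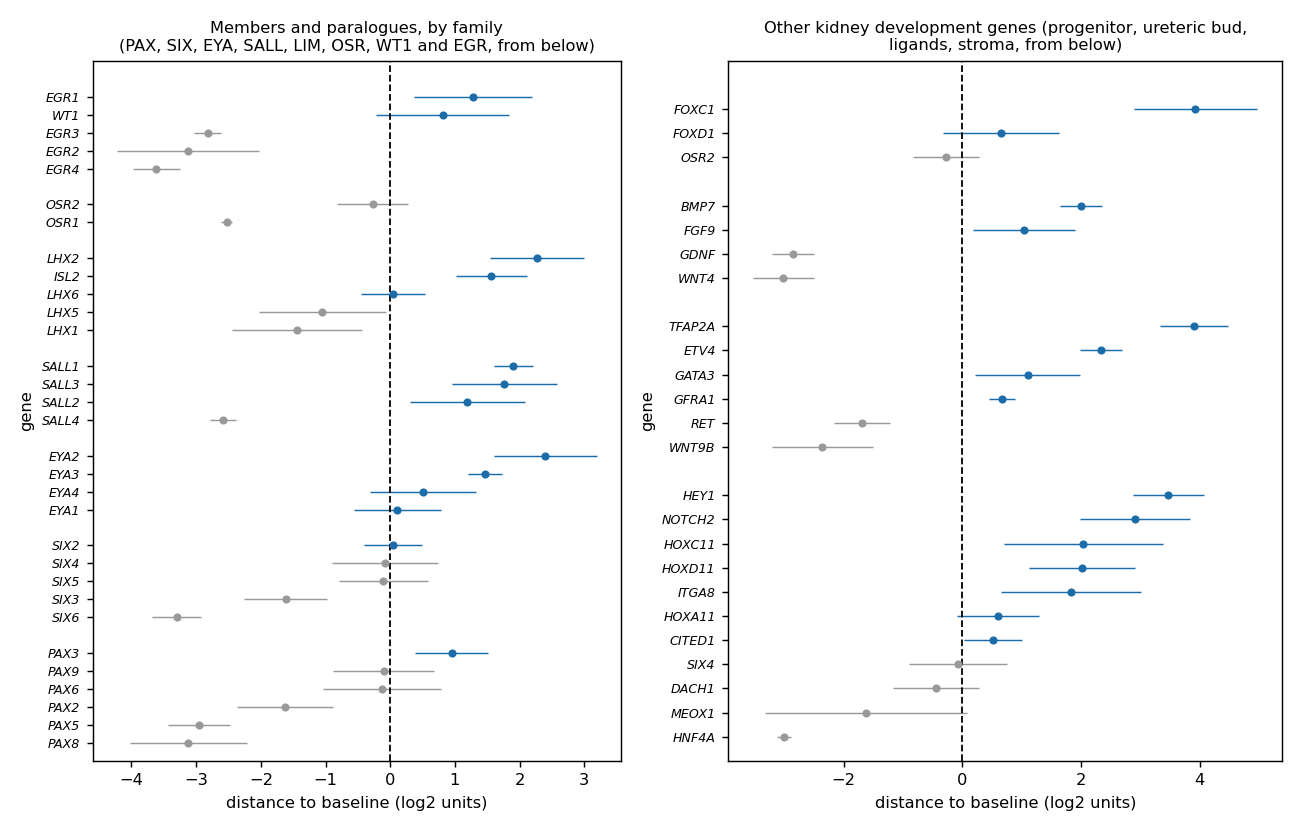
Distance to the baseline (log2 units, mean and SD over 4 arrays) of the 8 factors with paralogues (left) and of other kidney development genes by role (right), for genes given singly in the text, in blue where the mean lies above 0 and grey where it does not. All 4 EYA genes have means above 0, PAX3 is the only PAX gene drawn with a mean above 0, and GDNF, RET, WNT4 and WNT9B lie below 0.

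Markers of kidney and of other cell types were measured beside these genes, since the label gives only a cell line of kidney origin. Beside the counts that follow, 52.7% of all genes were detected and 39.8% lay below the baseline on all 4 arrays. Of 11 tubule markers LRP2 alone was detected, at 1.27 ± 0.68 (SD, n = 4). The other 10 lay below the baseline on all 4 arrays. Of 6 podocyte markers PODXL and CD2AP were detected, while NPHS1, which encodes the slit diaphragm protein nephrin, stood at -1.82 ± 1.00 (SD, n = 4). All 9 adrenal cortex markers lay below the baseline on all 4 arrays. Neuronal markers were detected in 6 of 9 cases (66.7%, beside 52.7% of all genes). Of these 5 lay above the baseline on all 4 arrays and passed limma's test, beside 45% and 45.9% of all genes. The sixth, NEFM, had distances of 4.10, -1.62, 2.40 and -2.24 on replicates 1 to 4, with a mean of 0.66 ± 3.08 (SD, n = 4, limma adjusted p = 0.064), high on replicates 1 and 3 alone. Sympathoadrenal markers were detected in 2 of 9 cases, HAND2 and GATA2. In a bulk culture fewer cells with a transcript and less of it per cell cannot be told apart.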

How the data were processed

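RNA of 4 untreated HEK293 cultures was hybridised to NimbleGen arrays designed on HG18, scanned and extracted with NimbleScan. The values deposited by the authors are on the log2 scale, 1 for each probe on each array; the submitters' processing notes name RMA, and sorted values within pairs of arrays (replicates 1 and 2, and 3 and 4) lay within 0.01 of each other at 99.97% or more of ranks, a form that normalizing the pairs apart would give. Gene names came from a RefSeq table (GRCh38.p14), used for names only and joined on the unversioned accession, which named 19125 of 24000 targets.

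A target's level was log2 of the mean linear value of its probes, and a gene's the mean of its targets. Of 11 seminal control genes listed by the study 10 were matched. Distances were tested against 0 with limma 3.58 in R 4.3, one-sided, Benjamini-Hochberg adjusted at 0.05 over 17217 genes. The prior degrees of freedom were infinite, so all genes took a standard error of 0.351, and a shift of an array's baseline moved all genes together. Depth does not apply to arrays; background and saturation of spots were not examined. Members and lists were chosen with earlier results of these data known. Genes named were the 8 factors and genes of the lists, of which some are counted but not reported singly here. The paralogues PAX4 and LMX1A, the stroma gene TBX18 and the neuronal marker RBFOX3 were not matched. No gene was named by likeness of pattern, since replicates hold no conditions. Alternatives covered the baseline, control genes, probe summary, targets, normalization, block, filter and each replicate.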

Additional observations from a re-analysis of the deposited data

Results flagged for a closer look

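Dixon's test of a single outlying array, which divides the gap to the nearest array by the whole range, was passed by 5 of 134 measures. Chance marks about 1 in 20.

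Among the 8 factors it was the dimmest PAX8 probe, at 7.26 log2 units on replicate 4 against 6.18 to 6.36 elsewhere (ratio 0.831), below the baseline on every array. No level or distance of a factor as a whole passed. Of the other genes GATA3 (ratio 0.884) had a distance of 2.42 on replicate 1 and 0.57 to 0.78 on the others, SALL3 (ratio 0.844) 2.97 on replicate 1 and 1.2 to 1.48 on the others, and EGR2 (ratio 0.895) -1.49 on replicate 1 and -3.81 to -3.57 on the others. LDB1 (ratio 0.877) had 2.68 on replicate 3 and 3.18 to 3.24 on the others. The baseline was lowest on replicate 1 and highest on replicate 3, and the part of this in these distances was not tested.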

How the results depend on the processing

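The alternative that leaves out the brightest probe was chosen after seeing these data. Of the 143 alternative values of the 8 distances, 125 kept their sign and 18 changed it. Of the 127 that had an adjusted p, 9 gained the limma call and 9 lost it, 3 of each with a change of sign; the cause was not tested beyond the height of the baseline itself.

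With 3 SD the distances were -0.50 for WT1, -1.28 for SIX2, -1.21 for EYA1 and 0.59 for SALL1 (limma adjusted p = 0.20). The counts were then 1 of 8 factors, 11 of 56 kidney development genes and 6 of 32 paralogues, beside 39.1% of all genes. With 1 SD, SIX2 stood at 1.36 and EYA1 at 1.43, and 19 of 32 paralogues were detected, beside 64.3% of all genes. Without SPATA5 and SPATA13 as controls, PAX2 stood at 0.70, LHX1 at 0.89, SIX2 at 2.36 and EYA1 at 2.44. Detected were 42 of 56 kidney development genes and 23 of 32 paralogues, beside 74% of all genes. With olfactory receptor genes the values were 0.46, 0.65, 2.12 and 2.19, with 41 and 21 detected, beside 71.4% of all genes. Means of log2 probe values gave 0.41 for WT1 (limma adjusted p = 0.27), -0.13 for SIX2 and -0.39 for EYA1. Of the 8 factors 2 were then detected, beside 51.5% of all genes. Medians gave -0.13 for WT1 and -0.60 for SIX2, also with 2, beside 50.2% of all genes. Without the brightest probe WT1 stood at -0.12, SIX2 at -0.53 and SALL1 at 0.59, again with 2, beside 50.7% of all genes. Leaving out single replicates moved WT1 from 0.55 to 1.3, SIX2 from -0.088 to 0.25 and EYA1 from -0.21 to 0.28, and the count of factors from 2 (without replicate 1) to 4. With array pairs (replicates 1 and 2, and 3 and 4) as a random block WT1, at 0.81, had a limma adjusted p of 0.066. SIX2 was at -0.10 on replicates 1 and 3 alone, and EYA1 at -0.13 on replicates 2 and 4 alone. Called on all 4 arrays the count of factors was 1, and by limma it was 2, beside 45% and 45.9% of all genes. PAX8 could not be tested with dim genes left out, since its mean level was below that of the control genes.

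No paired analysis was possible because the series holds 1 group. The 4 arrays and the 3 probes of a target limit the precision of each distance.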
